A study of Rattus norvegicus with 24 samples.

Results

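The red cell signal of the hypothalamus was examined by comparing libraries rich in Hbb, the gene of an adult beta chain of haemoglobin, with libraries poor in it. The libraries were chosen by their own Hbb level. Within each of the 4 groups of the study, the 6 libraries were ranked by Hbb in CPM (the counts of a gene for each 1000000 counts of its library), and the upper 3 were compared with the lower 3. This gave 12 Hbb-rich and 12 Hbb-poor libraries of 24 in all. The tissue was the whole hypothalamus of pups of the Sprague Dawley strain, taken at postnatal day 10 (PN10). Their dams had eaten, from before mating onwards, a control diet with 12% of its digestible energy as lipid (offspring called CON-O) or a high fat diet with 43% (HFD-O). Each sex within each maternal diet had 6 libraries, and a library is named here by its group and number. No group carried a transgene. The study had fewer litters on each maternal diet than pups sequenced, so some CON-O pups and some HFD-O pups shared a dam. The litter of each pup is not given in the sources used here, so p-values measure the spread between libraries and not between dams.

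Red cells of the rat carry oxygen on haemoglobin, which joins alpha and beta globin chains around haem. Mature red cells have lost their nucleus, but the youngest of them, the reticulocytes, still hold messenger RNA for globins and for a small set of other red cell proteins. Blood in vessels and in the leptomeninges, the thin membranes on the brain surface, is therefore part of any brain sample from which it was not flushed. The study took blood from the pups by cardiac puncture, and flushing of the vessels is not mentioned in the sources used here. In whole tissue, more red cells and more globin RNA per red cell cannot be told apart.

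Library totals lay between 6132112 and 7994399 counts. The mean total was 7029228 ± 432732 (SD, n = 12) in Hbb-rich and 6863732 ± 472534 (SD, n = 12) in Hbb-poor libraries, a difference that was within the spread (two-sided exact permutation within groups, p = 0.326). The number of genes with at least 1 read was 13241 ± 49.1 (SD, n = 12) against 13207 ± 54.5 (SD, n = 12; exact permutation p = 0.132). Hypothalamic peptide genes were present in all libraries, with summed levels of 1812 to 2216 CPM in Hbb-rich and 1684 to 2333 CPM in Hbb-poor ones. The sum does not show single members. Agrp had 0.295 CPM in the lowest and 10.3 CPM in the median Hbb-rich library, against 5.03 and 9.48 CPM in Hbb-poor ones.

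Hbb ranged 13.5-fold across the libraries. In female CON-O the Hbb-poor libraries 4, 10 and 2 had 178.3, 212.9 and 221.1 CPM and the Hbb-rich libraries 6, 12 and 8 had 222.7, 335.9 and 572.4 CPM. In female HFD-O libraries 16, 20 and 24 had 213.1, 230.8 and 657.5 CPM and libraries 14, 18 and 22 had 826.7, 1012 and 1988 CPM. In male CON-O libraries 5, 3 and 7 had 154.6, 180.4 and 225.1 CPM and libraries 11, 9 and 1 had 256.2, 666.4 and 1031 CPM. The step from poor to rich was thus narrow in the control groups, where libraries 2 and 6 lay next to each other, and the 2 highest values of all were in HFD-O. In male HFD-O libraries 19, 15 and 13 had 146.8, 238.4 and 387.6 CPM and libraries 23, 17 and 21 had 602.7, 644.7 and 1865 CPM. The mean of the rich libraries was 1.85 times that of the poor ones in female CON-O, 3.47 times in female HFD-O, 3.49 times in male CON-O and 4.03 times in male HFD-O. Because the split was made inside each group, the rich and poor libraries overlapped across groups, and 6 of the 12 rich libraries lay below the poor library female HFD-O 24. The 4 named globin genes (Hbb, Hbb-b1, Hba1 and Hba2) took between 0.0533% and 0.616% of all counts.

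**Figure D1:**
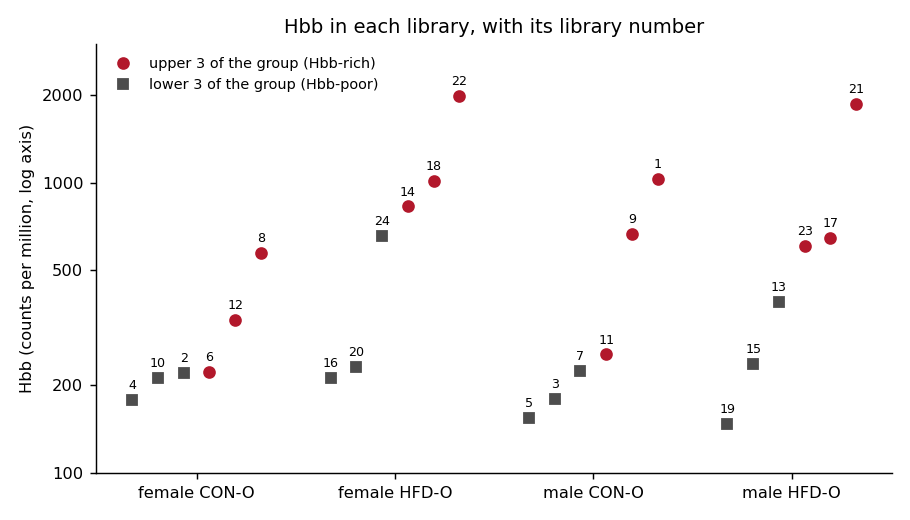
Hbb in CPM on a log axis for each of the 24 libraries, in 4 groups of 6. Red circles are the upper 3 and grey squares the lower 3 of a group, numbers are library numbers, and the highest points are female HFD-O 22 at 1988 and male HFD-O 21 at 1865 CPM.

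Among the 11629 genes tested, all but Hbb itself, 15 were higher in Hbb-rich libraries at an adjusted p of 0.05 (0.129% of the genes tested) and 0 were lower (0%). The test was edgeR's quasi-likelihood test with the group as covariate and Benjamini-Hochberg adjustment, and differences are given as log2 of rich over poor with their standard error (SE). At an unadjusted p under 0.05, 503 genes were higher and 355 lower. DESeq2 called 1 gene lower, Prrt2, and the likelihood ratio test and limma-voom called 0 lower. The median difference over all genes was 0.00. Red cell genes made up most of the calls, namely Hba1, Hba2, Hbb-b1, Ahsp, Alas2, Slc4a1 and Alox15 from the lists of red cell genes, and outside those lists Hemgn and Lgals5, known from red cell precursors and reticulocytes. LOC689064 and LOC287167 were called as well, and with them 9 calls were on those lists. The globin list holds both IDs, but the tables and the reference used here leave them unannotated, so they are given apart from the named genes. The remaining calls were Cdc25b, Fam180a, Rsad2 and Itgam. Libraries were split on Hbb, itself a red cell gene. Calls of globins and other red cell genes are therefore tied to that choice, and their p-values are no independent support. Leaving out any 1 library left between 13 and 19 genes called higher. Without libraries 21 and 22 together, those with the most Hbb, 14 were called higher and 1 lower, Basp1. With the log2 CPM of Hbb as a number in place of the split 19 were called higher, among them Ybx3, Gpx1, Fam46c and Aqp1, and Itgam and Fam180a were not. With consecutive library numbers as a block (1 with 2, 3 with 4 and so on, each a male and a female of 1 maternal diet) 20 were called higher and 9 lower, and 6 of the 15 calls were lost, those of Ahsp, Cdc25b, Hemgn, Itgam, Lgals5 and Rsad2. The labels do not say what the library numbers stand for. With a leptomeninges score in the fit, described with that list, 0 were called.

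**Figure D2:**
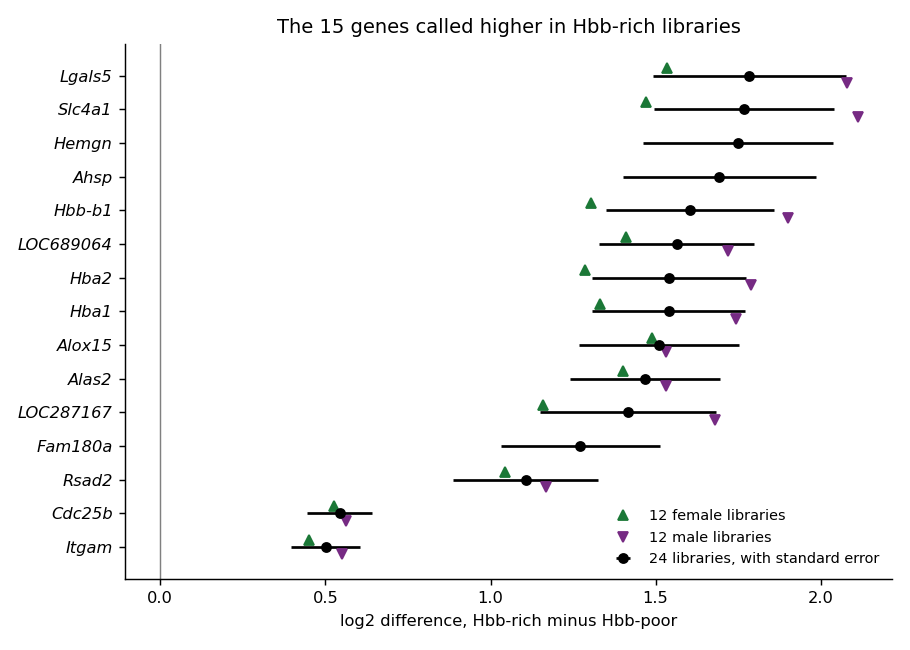
Log2 difference between Hbb-rich and Hbb-poor libraries for the 15 called genes. Black points with bars are the estimate and standard error over 24 libraries, and triangles are the estimates within the 12 female and 12 male libraries (Hemgn, Ahsp and Fam180a fell below the count filter within a sex). The named globins and other red cell genes lie between 1.47 and 1.78, the unannotated LOC287167 and LOC689064 at 1.42 and 1.56, and Cdc25b and Itgam near 0.5.

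The other globins followed Hbb closely. Their reads or cells are those by which the libraries were ranked, so their adjusted p-values are no independent support. Hba1, an alpha globin, had 385 CPM in the lowest, 1024 in the median and 2749 in the highest Hbb-rich library, against 254, 379 and 852 CPM in the Hbb-poor ones, and rich and poor libraries did not overlap in 3 of the 4 groups. Its log2 difference was 1.54 ± 0.23 (SE, adjusted p = 0.00198). The exception was female CON-O, where the Hbb-rich library 6 had 385 CPM and the Hbb-poor library 2 had 413. How many of all genes tested separated rich from poor libraries within a group was not counted. Statements on overlap, here and below, are therefore descriptions. Hba2, the second alpha globin of the tables, had 153, 429 and 1124 CPM in rich and 95.9, 154 and 343 CPM in poor libraries (log2 difference 1.54 ± 0.23, SE, adjusted p = 0.00198). Hbb-b1, a further beta globin, had 44.4, 104 and 331 CPM against 25.8, 38.8 and 103 CPM, with no overlap in any group (1.60 ± 0.25, SE, adjusted p = 0.00235). Globin copies are near-identical, and how reads were shared among them is not given in the sources used here, so the split between Hbb and Hbb-b1, and between Hba1 and Hba2, is uncertain. LOC689064 had 8.00, 18.9 and 47.3 CPM in rich and 4.03, 6.65 and 15.8 CPM in poor libraries (1.56 ± 0.24, SE, adjusted p = 0.00198), and LOC287167 had a difference of 1.42 ± 0.27 (SE, adjusted p = 0.0145), which without libraries 21 and 22 had an adjusted p of 0.0596.

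Ahsp, the chaperone that holds free alpha globin until it meets a beta chain, was counted at far lower depth, between 1 and 50 reads a library. It had 1.03, 1.77 and 7.13 CPM in the lowest, median and highest rich library and 0.139, 0.8 and 2.25 CPM in poor ones (1.69 ± 0.29, SE, adjusted p = 0.00520), and with the block of consecutive numbers its difference was 1.40 (adjusted p = 0.193). Within each group rich and poor libraries did not overlap.

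Red cell genes share a small number of regulators. GATA1 binds GATA sites, of which AGATAA is one form, and KLF1 binds CACCC boxes. The stretch from 250 bases before to 50 after the RefSeq start site (build GRCr8) is shown for 4 of the genes that moved together, because it places those letters beside the genes measured. Capitals mark AGATAA and CACCC on either strand (on the opposite strand TTATCT and GGGTG), and neither motif overlaps the other. Hbb lies on chromosome 1 (chr1:167663672-167663971, minus strand), Hbb-b1 on chromosome 1 (chr1:167643471-167643770, minus strand), Alas2 on chromosome X (chrX:22895200-22895499, plus strand) and Lgals5 on chromosome 10 (chr10:64355088-64355387, minus strand).
Hbb: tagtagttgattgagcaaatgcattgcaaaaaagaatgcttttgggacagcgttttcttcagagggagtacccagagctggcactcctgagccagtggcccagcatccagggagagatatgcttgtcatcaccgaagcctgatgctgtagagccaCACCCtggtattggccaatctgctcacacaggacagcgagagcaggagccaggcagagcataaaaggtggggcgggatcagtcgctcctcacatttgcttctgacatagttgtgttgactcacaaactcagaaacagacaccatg
Hbb-b1: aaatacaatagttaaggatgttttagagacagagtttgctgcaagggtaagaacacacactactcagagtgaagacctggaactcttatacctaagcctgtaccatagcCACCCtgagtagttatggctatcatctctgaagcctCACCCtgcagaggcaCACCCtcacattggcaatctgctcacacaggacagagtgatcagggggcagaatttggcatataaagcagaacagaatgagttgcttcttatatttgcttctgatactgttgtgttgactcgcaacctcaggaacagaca
Alas2: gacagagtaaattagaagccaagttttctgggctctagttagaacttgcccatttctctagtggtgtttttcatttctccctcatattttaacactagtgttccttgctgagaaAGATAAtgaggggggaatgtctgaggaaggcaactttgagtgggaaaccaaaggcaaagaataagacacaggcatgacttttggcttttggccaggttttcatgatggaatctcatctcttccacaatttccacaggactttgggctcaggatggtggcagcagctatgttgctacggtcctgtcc
Lgals5: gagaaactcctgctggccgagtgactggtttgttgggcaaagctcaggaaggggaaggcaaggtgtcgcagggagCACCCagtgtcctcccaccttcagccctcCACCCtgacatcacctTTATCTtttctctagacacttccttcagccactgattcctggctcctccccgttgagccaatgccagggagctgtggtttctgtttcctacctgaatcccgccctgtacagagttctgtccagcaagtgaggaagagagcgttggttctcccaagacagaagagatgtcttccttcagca
Hbb held 1 CACCC and Hbb-b1 3, Alas2 held 1 AGATAA, and Lgals5 held 1 AGATAA and 2 CACCC. Of the 16 genes made up of Hbb and the calls, 9 matched a promoter entry by symbol. AGATAA stood in 3 of these 9, at 1 of its start sites for Hemgn, and in 11.6% of all 33469 promoter windows of the same length. CACCC stood in 5 of the 9 and in 54.9% of all windows. These matches describe the letters of the windows only.

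Genes for haem synthesis and the red cell membrane each gave 1 call. Alas2, the first enzyme of haem synthesis in red cells, had 5.09, 15.1 and 38.3 CPM in the lowest, median and highest Hbb-rich library and 2.72, 5.32 and 13.9 CPM in Hbb-poor ones (1.47 ± 0.23, SE, adjusted p = 0.00198). It was the only call among 15 genes of haem synthesis and iron entry, of which 9 were higher and 6 lower with a median of 0.01. Slc25a37, mitoferrin, which brings iron into mitochondria, came next with a log2 difference of 0.33 ± 0.18 (SE, adjusted p = 0.715). Slc4a1, band 3, the anion exchanger of the red cell membrane, had 3.35, 10.4 and 33.2 CPM in rich and 0.604, 3.77 and 11.3 CPM in poor libraries (1.77 ± 0.27, SE, adjusted p = 0.00198). Of 13 membrane and cytoskeleton genes tested 11 were higher and 2 lower, 1 was called and the median was 0.12. Aqp1, a water channel of red cells and choroid plexus, had a difference of 0.97 ± 0.26 (SE, adjusted p = 0.267), and Rhd, a blood group protein, one of 0.37 ± 0.15 (SE, adjusted p = 0.628). Xk, a further blood group protein, was on the other side of 0 at -0.27 ± 0.10 (SE, adjusted p = 0.502). Most haem and membrane genes are used by other cells of the brain as well, and the summed level of the haem list lay between 705 and 808 CPM in rich and between 736 and 788 CPM in poor libraries.

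Alox15, a lipoxygenase that takes part in the breakdown of mitochondria in reticulocytes, was among the most abundant calls. It had 51.0, 144 and 444 CPM in rich and 28.5, 43.2 and 136 CPM in poor libraries, without overlap in any group (1.51 ± 0.24, SE, adjusted p = 0.00235). It was the only call among 24 genes of red cell maturation and enzymes, of which 12 were higher and 12 lower. Fam46c, a poly(A) polymerase, was next at 0.73 ± 0.17 (SE, adjusted p = 0.115), followed by Gpx1, a glutathione peroxidase, at 0.20 ± 0.05 (SE, adjusted p = 0.300). Hemgn, a nuclear protein of red cell precursors, had 0.576, 2.46 and 4.23 CPM against 0.141, 0.561 and 2.25 CPM (1.75 ± 0.29, SE, adjusted p = 0.00271; with the block 1.41, adjusted p = 0.101). Lgals5, a galectin of rat reticulocytes, had 1.47, 4.28 and 11.0 CPM against 0.478, 1.37 and 4.10 CPM (1.78 ± 0.29, SE, adjusted p = 0.00271; with the block 1.16, adjusted p = 0.206). Regulators of red cell formation gave 0 calls, with 4 of 8 higher and a median of 0.01, and Gata1, Nfe2 and Epor fell below the count filter.

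Read counts of the other named globins kept a narrow ratio to Hbb, and those of the remaining red cell genes a wider one. Per 1000 Hbb reads, Hba1 had 1296 reads in the lowest, 1641 in the median and 1867 in the highest of the 24 libraries, a span of 1.44-fold, while its CPM spanned 10.8-fold. Hbb-b1 had 149, 174 and 211 reads per 1000 Hbb reads, a span of 1.42-fold against 12.8-fold in CPM. The ratio of alpha reads (Hba1 and Hba2) to beta reads (Hbb and Hbb-b1) was 1.57 in the lowest, 1.97 in the median and 2.25 in the highest library, and its median was 1.94 in rich and 2.03 in poor libraries. The ratio was wider for Alas2 (15.2, 23.1 and 31.1 reads, 2.04-fold) and for Alox15 (129, 206 and 427 reads, 3.31-fold). For Lgals5 the ratio spanned 4.49-fold, for Slc4a1 7.81-fold, for Hemgn 8.48-fold and for Ahsp 12.8-fold, while their CPM spanned between 22.9-fold and 55.0-fold. These 4 genes had few reads in the libraries where they were lowest, and their spans include counting error. In Cdc25b the CPM varied less than the ratio, with a ratio that spanned 6.84-fold and a CPM that spanned 2.63-fold. All ratios of a library share its Hbb count, and they are a description without a test.

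**Figure D3:**
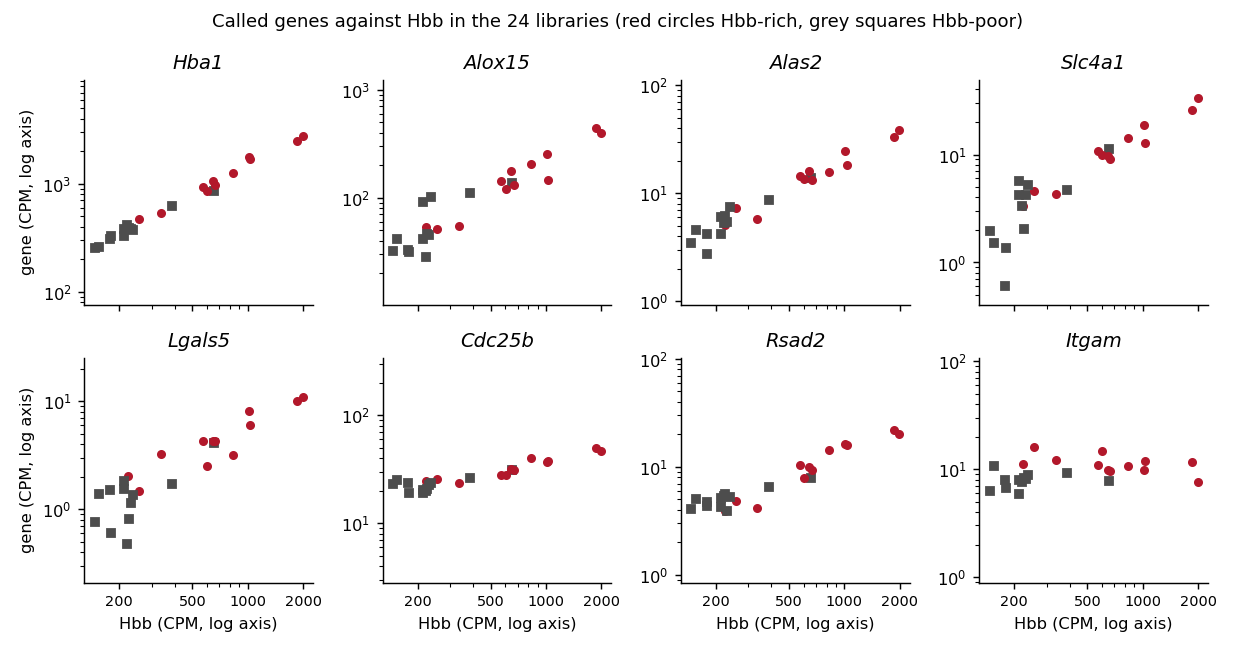
CPM of 8 called genes against the CPM of Hbb, both on log axes, in each of the 24 libraries, with panels of equal or wider log range and their own limits. Red circles are Hbb-rich and grey squares Hbb-poor libraries. Hba1 runs from 254 to 2749 CPM along a line, and Itgam stays between 5.90 and 16.1 CPM.

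The genes most like Hbb over the 24 libraries, by Pearson correlation of log2(CPM + 1) after centring within groups, were Hba1 (r = 0.994), Hba2 (0.992), Hbb-b1 (0.992), LOC689064 (0.979), Alas2 (0.977), Rsad2 (0.948), LOC287167 (0.944), Slc4a1 (0.943), Alox15 (0.942) and Lgals5 (0.929). Without the libraries farthest from the median Hbb level, male HFD-O 21 and female HFD-O 22, these values were between 0.898 and 0.992. The median r over all 11629 genes was 0.01, and 16 genes had an r above 0.8. Ybx3, a cold shock domain protein, followed at 0.925 and was not called between rich and poor libraries (0.34 ± 0.08, SE, adjusted p = 0.174). Itgam had an r of 0.428 and Fam180a one of 0.626. These correlations share library depth and Hbb itself, and they are a description.

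Cdc25b, Rsad2, Itgam and Fam180a are not red cell markers of the lists used. Cdc25b, a phosphatase that starts mitosis, had 23.8, 31.5 and 50.3 CPM in rich and 19.2, 23.0 and 30.99 CPM in poor libraries (0.54 ± 0.10, SE, adjusted p = 0.00955; with the block of consecutive numbers 0.39, adjusted p = 0.156). Its highest values were in male HFD-O 21 (50.3 CPM) and female HFD-O 22 (47.0 CPM), the libraries with the highest Hbb. Rsad2, viperin, an antiviral enzyme induced by interferon, had 3.93, 10.2 and 22.1 CPM against 3.91, 5.06 and 7.95 CPM (1.11 ± 0.22, SE, adjusted p = 0.0260). In female CON-O only library 8 was high at 10.4 CPM, and the Hbb-rich libraries 12 and 6 had 4.19 and 3.93 CPM, below all 3 poor ones. Rsad2 was the only call among 19 interferon-induced genes, of which 13 were higher with a median of 0.08, and Ifit1 had a difference of 0.61 ± 0.33 (SE, adjusted p = 0.713). The call of Rsad2 was kept in 14 of the 24 fits that left out 1 library, without libraries 21 and 22 together its adjusted p was 0.0852, and with the block it was 0.113. Fam180a had 0.466, 1.54 and 3.00 CPM against 0.159, 0.635 and 1.21 CPM (1.27 ± 0.24, SE, adjusted p = 0.0145), from as few as 1 read in a library. In every Hbb-poor library it stayed under the minimum count of 10, so it passed the count filter only through Hbb-rich libraries. Its p-value is therefore a description and no independent support. Without a filter on low counts it was called as well.

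Itgam, the integrin chain CD11b of microglia, monocytes and neutrophils, had 7.66, 11.0 and 16.1 CPM in rich and 5.90, 7.94 and 10.7 CPM in poor libraries (0.50 ± 0.10, SE, adjusted p = 0.0490). Its highest values were in male CON-O 11 (16.1 CPM) and male HFD-O 23 (14.8 CPM), and the library with the most Hbb, female HFD-O 22, had 7.66 CPM. The call was kept in only 4 of the 24 fits that left out 1 library, and with the block its adjusted p was 0.151. Of 19 microglia genes 12 were higher and 7 lower, with 1 call and a median of 0.04. Olfml3, a matrix protein of microglia, had a difference of 0.34 ± 0.11 (SE, adjusted p = 0.381).

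Other blood cells gave 0 calls by the quasi-likelihood test with the group as the only covariate. Neutrophil genes had 4 of 16 members above the filter, and the defining granule genes S100a8, S100a9, Ngp and Camp were not among them. Hp, haptoglobin, had 29.8 CPM in the highest and 1.45 CPM in the median rich library, against 1.97 CPM in the highest poor library (1.44 ± 0.52, SE, adjusted p = 0.524). Platelet genes had 3 of 7 members above the filter, with 2 higher and 1 lower, and lymphocyte genes 2 of 11, both higher. Pf4, a platelet chemokine that macrophages also make, had a difference of 0.78 ± 0.24 (SE, adjusted p = 0.381). The same test with an endothelium score in the fit called Pf4 (adjusted p = 0.0488).

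Markers of the leptomeninges were mostly higher in Hbb-rich libraries. None was called by the quasi-likelihood test on all 24 libraries with the group as the only covariate. Of 28 members tested 27 were higher and 1 lower in Hbb-rich libraries, 23 of them at an unadjusted p under 0.05 and 0 at an adjusted p of 0.05, and the median difference was 0.68 against 0.00 over all genes. The summed level of the 29 markers lay between 361 and 3302 CPM in rich and between 308 and 1683 CPM in poor libraries, and Slc47a1 and Asgr1 were the members at 0 in some library. Gjb6, connexin 30 of astrocytes and meningeal cells, had 8.21, 18.5 and 32.9 CPM against 6.17, 11.1 and 22.0 CPM (0.70 ± 0.16, SE, adjusted p = 0.0894) and was the first gene past the threshold. Gjb6 was called by the likelihood ratio test (adjusted p = 0.00852) and by DESeq2 (adjusted p = 0.00804). With the block of consecutive numbers Cdh1, E-cadherin, and Mgp were called higher, and Slc47a1 was called with the upper 2 against the lower 2 libraries and with the endothelium score. In males alone 9 of 27 members were called higher by the likelihood ratio test, 3 by DESeq2 and 13 by the quasi-likelihood test without male CON-O 11. Over all genes these fits called 45 of 11454, 30 of 11454 and 42 of 11509 higher. Of the 12 male quasi-likelihood fits with 1 library left out, 10 called 0 genes. Slc47a1, an organic cation exporter, had a difference of 2.04 ± 0.53 (SE, adjusted p = 0.263) from very few reads. Slc6a20, a proline transporter, had one of 1.26 ± 0.33 (SE, adjusted p = 0.263) and Mgp, a matrix protein, one of 0.81 ± 0.21 (SE, adjusted p = 0.263).

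The meningeal markers did not follow Hbb in each group. In female CON-O the summed level was 495, 374 and 433 CPM in the Hbb-rich libraries 6, 12 and 8 and 1091, 456 and 308 CPM in the Hbb-poor libraries 4, 10 and 2, so rich and poor libraries overlapped. In male HFD-O it was 3302, 1791 and 1251 CPM in the rich libraries 23, 17 and 21 and 455, 796 and 901 CPM in the poor libraries 19, 15 and 13. The highest meningeal level was thus not in the library with the most Hbb. The median difference of the list was 0.24 in females and 1.08 in males. With the meningeal score (the mean of log2(CPM + 1) over the list, centred within groups) in the fit, the log2 difference was 1.26 for Hba1 (unadjusted p = 2.46e-05, adjusted p = 0.0803), 1.29 for Alas2 (adjusted p = 0.0869) and 1.60 for Slc4a1 (adjusted p = 0.0803). Without the score the same differences were 1.54, 1.47 and 1.77. The difference of Fam180a went from 1.27 to 0.75 (adjusted p = 0.568) and that of Hemgn from 1.75 to 1.19 (adjusted p = 0.296). The adjusted p with the score was 0.442 for Rsad2, 0.387 for LOC287167 and 0.296 for Cdc25b, and over all 15 calls it lay between 0.0803 and 0.568, so that 0 were kept. The score rests on genes of which 27 of 28 were higher in Hbb-rich libraries, and how far each contributes to the calls was not tested.

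**Figure D4:**
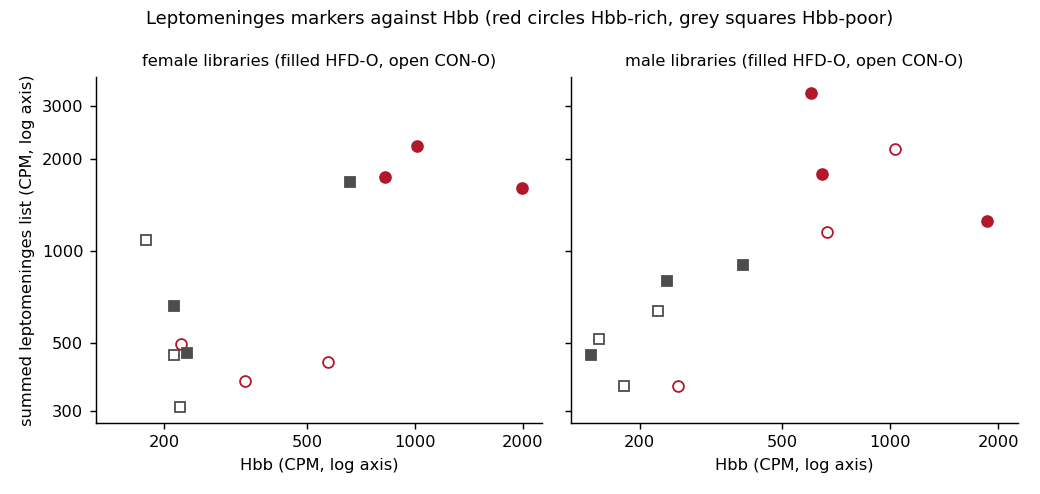
Summed CPM of the leptomeninges list against the CPM of Hbb, both on log axes, in the 12 female (left) and 12 male (right) libraries. Red circles are Hbb-rich, grey squares Hbb-poor, filled symbols HFD-O and open symbols CON-O. In male HFD-O the rich libraries sit at 1251 CPM and above and the poor ones at 901 CPM and below, and in female CON-O rich and poor libraries overlap.

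Macrophages of the brain borders were measured by 6 genes, all higher in Hbb-rich libraries, with a median of 0.51. By the quasi-likelihood test with the group as the only covariate 0 were called and 4 had an unadjusted p under 0.05. Clec10a, a lectin of these cells, had a difference of 0.86 ± 0.22 (SE, adjusted p = 0.263) and was called by the likelihood ratio test (adjusted p = 0.0332). With the endothelium score in the fit Clec10a and Pf4, which is on this list too and on that of platelets, were called. Colec12, a scavenger receptor, had a difference of 0.64 ± 0.20 (SE, adjusted p = 0.424) and Lyve1, the hyaluronan receptor, one of 0.23 ± 0.10 (SE, adjusted p = 0.657). Their summed level was between 22.3 and 82.3 CPM in rich and between 17.7 and 46.9 CPM in poor libraries.

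Vessel cells showed smaller differences. Of 23 endothelial genes 14 were higher and 9 lower, with 0 calls and a median of 0.04, and their summed level was between 698 and 954 CPM in rich and between 657 and 935 CPM in poor libraries. Thbd, thrombomodulin, had the smallest p of the list (0.74 ± 0.24, SE, adjusted p = 0.402), followed by Slco1a2, an organic anion transporter of the blood-brain barrier (0.30 ± 0.11, SE, adjusted p = 0.546). In males alone DESeq2 called Thbd. Of 14 genes of mural cells, the pericytes and smooth muscle of vessels, 11 were higher, with 0 calls and a median of 0.08. Anpep, aminopeptidase N of pericytes, had a difference of 0.46 ± 0.14 (SE, adjusted p = 0.400) and Vtn, vitronectin, one of 0.27 ± 0.09 (SE, adjusted p = 0.424). With an endothelium score in the fit, 21 genes were called higher.

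**Figure D5:**
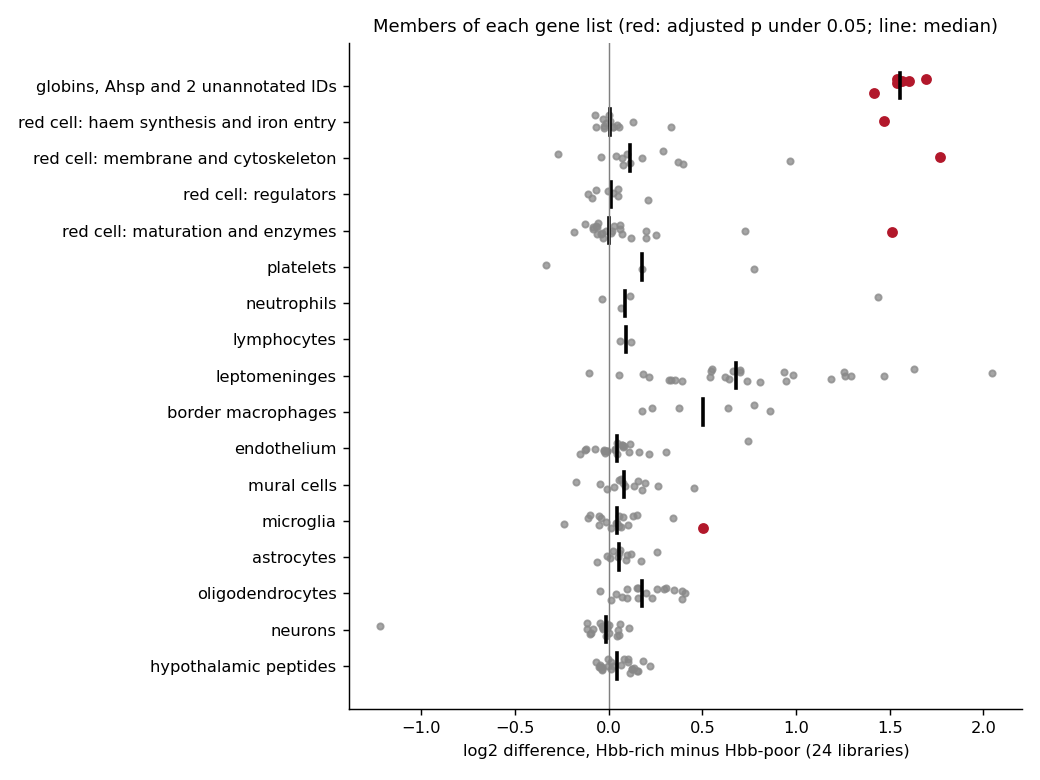
Log2 difference between Hbb-rich and Hbb-poor libraries over 24 libraries for each tested member of 17 gene lists. Points are genes, red points passed an adjusted p of 0.05 and black lines are list medians, 0.68 for leptomeninges, 0.51 for border macrophages and -0.01 for neurons.

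Genes of the hypothalamus itself gave 0 calls. Of 24 hypothalamic peptides 15 were higher and 9 lower with a median of 0.04, and of 22 genes of hypothalamic nuclei 13 were higher with a median of 0.00. Of 21 neuronal genes 5 were higher (7 with library totals without globins) with a median of -0.01, and 5 of the 16 lower ones had an unadjusted p under 0.05. Stmn2, a tubulin regulator of growing axons, had 2329, 2573 and 2858 CPM in rich and 2546, 2711 and 3190 CPM in poor libraries (-0.11 ± 0.04, SE, adjusted p = 0.598). Slc17a7, the vesicular glutamate transporter of cortex and parts of the thalamus, had a difference of -1.22 ± 0.47 (SE, adjusted p = 0.598). Of 10 thalamic markers 9 were lower with a median of -0.10, and Calb2, calretinin, had a difference of -0.16 ± 0.05 (SE, adjusted p = 0.478), and was called lower with the block of consecutive numbers (-0.20, adjusted p = 0.0219). Of 18 oligodendrocyte genes 17 were higher with a median of 0.18, and Tf, transferrin, had a difference of 0.41 ± 0.19 (SE, adjusted p = 0.659). All 14 tanycyte genes were higher with a median of 0.14, and Frzb, a Wnt antagonist, had a difference of 0.39 ± 0.16 (SE, adjusted p = 0.628).

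Haem handling, hypoxia targets, immediate early genes and ribosomal proteins were without a call on all 24 libraries with the group as the only covariate. Of 23 genes of haem and iron handling 14 were higher with a median of 0.03, and Cp, ceruloplasmin, had the smallest p (0.46 ± 0.14, SE, adjusted p = 0.378). Cp was called higher in males alone without male CON-O 11. Of 20 hypoxia targets 11 were higher with a median of 0.01 and 0 had an unadjusted p under 0.05. Of 22 immediate early genes 8 were higher with a median of -0.02. Of 64 cytosolic ribosomal protein genes 45 were lower with a median of -0.03. Among them Rpl17 (-0.95 ± 0.88, SE, adjusted p = 0.817) was called lower with the block of consecutive numbers.

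By the quasi-likelihood test with the group as the only covariate no gene was called lower on all 24 libraries, and DESeq2 called Prrt2. Quasi-likelihood fits of other settings did call genes lower. The fit without libraries 21 and 22 called Basp1, and the block of consecutive numbers called 9 other genes, Calb2 among them. Prrt2, a presynaptic protein, had 205, 218 and 240 CPM in rich and 216, 242 and 269 CPM in poor libraries (-0.14 ± 0.03, SE, adjusted p = 0.193). Basp1, a protein of growing axons, had 832, 969 and 1019 CPM against 911, 1046 and 1163 CPM (-0.14 ± 0.04, SE, adjusted p = 0.307). Prrt2 was lower in every rich than in every poor library in 1 group and Basp1 in 2 groups, and the share of all genes that did so was not counted. Imp3, Thop1, Tfap4, Sv2b, Mb21d2, Eif2b1, Ccnh, Ccdc112, RGD1308114, Kcnv1, Atg12, Hs6st1 and Doc2a made up the rest of the first 15, with log2 differences between -0.56 for RGD1308114 and -0.10 for Atg12 and adjusted p between 0.263 and 0.378. Scara3, a scavenger receptor (0.42 ± 0.10, SE, adjusted p = 0.174), and Tgfb2, a growth factor (0.19 ± 0.05, SE, adjusted p = 0.174), were higher and not called. The likelihood ratio test called both, and DESeq2 and the fit with the endothelium score called Scara3.

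Within each sex the same comparison had 6 libraries against 6. In females 0 of 11387 genes were called (0%), with 299 at an unadjusted p under 0.05, 7 by the likelihood ratio test and 0 by DESeq2. In males 0 of 11454 were called (0%), with 644 at an unadjusted p under 0.05, 47 by the likelihood ratio test and 31 by DESeq2. Without male CON-O 11, the rich library nearest to the split in its group, 42 genes were called in males, and without male HFD-O 23 7 were. The smallest adjusted p was 0.643 in females and 0.0705 in males by the quasi-likelihood test. Of the 15 genes called over both sexes, 12 were tested within a sex, and all 12 were higher with an unadjusted p under 0.05 in each. These genes had been called on the same libraries, so their direction within a sex is not independent evidence. Hba1 had a log2 difference of 1.33 ± 0.28 (SE) in females and 1.74 ± 0.31 (SE) in males. Slc4a1 had one of 1.47 ± 0.36 (SE) in females and 2.11 ± 0.34 (SE) in males.

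Whether females and males differed in this contrast was tested as an interaction term, with 0 of 11629 genes called (0%), 268 at an unadjusted p under 0.05 and 0 by DESeq2 or the likelihood ratio test. The smallest p was that of Tspan1, a tetraspanin, at a log2 difference of -0.36 in females and 0.21 in males (unadjusted p = 0.000422, adjusted p = 1.00), followed by Pdzrn3, an E3 ligase, and Fat2, a large cadherin. The difference between the maternal diets was tested likewise, with 0 genes called (0%), 444 at an unadjusted p under 0.05 and 0 by DESeq2 or the likelihood ratio test. Kcnab2, a potassium channel subunit, had the smallest p (HFD-O minus CON-O -0.42 ± 0.09, SE, unadjusted p = 0.000107, adjusted p = 0.999), followed by Synpr, a synaptic vesicle protein, and Acadsb, a fatty acid dehydrogenase.

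The study's own table of genes changed by maternal diet was counted as 1 list. Of its 90 genes, chosen by the study on these same libraries, 89 were tested, because Hbb is one of them. Of these 82 were higher in Hbb-rich libraries and 7 lower, 10 were called and 62 had an unadjusted p under 0.05, with a median of 0.40 against 0.00 over all genes. Over all 11629 genes tested 15 were called higher, and 503 were higher at an unadjusted p under 0.05. The calls of the list were Rsad2, Cdc25b and genes of the red cell lists. The latter were Hba1, Hba2, Hbb-b1, LOC689064, LOC287167, Alas2, Slc4a1 and Alox15, whose calls are tied to the split on Hbb. The comparison here was made within diet groups, but on the libraries that chose the list, so its direction is not independent evidence.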

How the data were processed

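RNA of 24 hypothalami, 1 library per pup, had been prepared with the TruSeq RNA kit. The methods name FastQC, Trimmomatic, Bowtie2 and edgeR, and the submitters' processing notes list FastQC, TopHat and edgeR with build rn6. The sources used here name no counting program, annotation, strand setting or version. The authors deposited 1 table per sex with whole-number counts per gene and library, the only values used. Further columns hold counts divided by constants and the authors' own comparison of diets, and were not used.

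The 13841 genes named in both tables were kept. Of these names 13594 matched RefSeq (GRCr8), used for names and promoter windows only. Libraries were split by Hbb CPM within each group. Genes passed filterByExpr (minimum count 10, minimum total 15), and Hbb was left out of the test. Counts were normalized by TMM (factors 0.978 to 1.019) and tested with edgeR 4.0.16 in R 4.3.3 (glmQLFTest, group as covariate, Benjamini-Hochberg over all genes tested, calls at 0.05). The biological coefficient of variation was 0.0943. The fit was also run on simulated counts with known folds, drawn as independent libraries with the same dispersion for every gene. That setting held no shared dams and no changed genes with very few reads, so it is no support for the p-values given here. Library totals and genes detected were compared by exact permutation over 160000 assignments within groups. Figures used Python 3.11.15 and matplotlib 3.10.9.

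Alternatives were the likelihood ratio test, DESeq2 1.42.0, limma-voom (limma 3.58.1), other size factors, library totals without globins, no filter, a minimum count of 50, the upper 2 against the lower 2 libraries, log2 Hbb CPM as a number, consecutive library numbers as a block, leptomeninges and endothelium scores, and each library left out. Leaving out libraries 21 and 22 together was added after seeing the data. The libraries and gene lists were chosen with earlier results of these data known. Named genes were Hbb and the other globins, the 15 genes with the smallest p in each direction, called members of each list or else up to 4 with the smallest p, 3 genes for each interaction test and the 10 genes most like Hbb. Genes that the text names among calls of an alternative were chosen after their values were seen.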

Additional observations from a re-analysis of the deposited data

Results flagged for a closer look

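Of 72 comparisons within groups of 6 libraries (Hbb, the 15 called genes, the library total and the number of genes detected, in 4 groups each), 20 held a library that stood apart from the other 5 by Dixon's criterion of 0.625. Chance gives about 1 in 20 for values that played no part in the choice of libraries. Hbb made the split and the 15 genes were called for being higher in its upper part, so that rate is no measure for them, and the direction of the 20, all high values in Hbb-rich libraries, follows from the choice.

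Male HFD-O 21 stood apart in 10 genes. It had 1865 CPM of Hbb where the other 5 had 147 to 645, 2465 CPM of Hba1, 1068 CPM of Hba2 and 331 CPM of Hbb-b1. It had 46.6 CPM of LOC689064, 26.1 CPM of Slc4a1, 444 CPM of Alox15 and 7.13 CPM of Ahsp. It also had 50.3 CPM of Cdc25b, where the others had 23.2 to 31.6, and 22.1 CPM of Rsad2, where they had 4.10 to 9.94.

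Female CON-O 8 stood apart in 8 genes. It had 929 CPM of Hba1, 101 CPM of Hbb-b1, 18.4 CPM of LOC689064 and 20.0 CPM of LOC287167. It had 10.8 CPM of Slc4a1, 14.5 CPM of Alas2, 143 CPM of Alox15 and 10.4 CPM of Rsad2, where the others had 3.93 to 5.42.

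LOC287167 was also apart in female HFD-O 22 (52.7 CPM) and in male CON-O 1 (38.1 CPM). No gene was called in the test of a difference between the sexes or between the maternal diets.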

How the results depend on the processing

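The count of genes called higher, 15, was 23 by the likelihood ratio test and 0 with the leptomeninges score in the fit, a score over genes of which 27 of 28 were higher in Hbb-rich libraries. It stayed within 1.5 times under the other 11 alternatives and was 13 to 19 with 1 library left out. The count called lower, 0, was 9 with consecutive library numbers as a block, 1 by DESeq2 and 1 without libraries 21 and 22 together, and 0 to 0 with 1 library left out. With that block 20 genes were called higher, of which 9 were among the 15, and 6 of the 12 consecutive pairs had both libraries rich or both poor. Between the male and the female of a pair, log2 Hbb centred within groups correlated with a Pearson r of 0.572 over the 12 pairs. The labels do not say what the library numbers stand for, and the cause was not tested. In females the count of 0 was 7 by the likelihood ratio test and 0 to 1 with 1 library left out. In males it was 47 by the likelihood ratio test, 31 by DESeq2, 11 without a filter and 0 to 42 with 1 library left out, the highest without male CON-O 11. Both interaction counts were 0 by the likelihood ratio test, by DESeq2, with other size factors and without a filter, and 0 to 0 with 1 library left out; the other alternatives were not run for them. Among the named genes other than Rpl17, which was not followed, no difference changed sign under any alternative run. The labels give no number that groups share, so the consecutive numbers were the only pairing tried. Genes such as Ahsp, Hemgn, Fam180a, Lgals5 and Slc47a1 rested on few reads, and a minimum count of 50 removed all of these from the test. At that minimum Itgam was tested and was not called.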
